A study of Homo sapiens with 4 samples.

Results

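Transcripts of CD44, of its ligand hyaluronan's synthases and hydrolases, and of other hyaluronan-binding proteins were examined in GIST-T1 cells that had received either a mimic of miR-34a or a control RNA. The 8 genes (CD44, HMMR, HAS1, HAS2, HAS3, HYAL1, HYAL2 and VCAN) were found by their exact names among the 36337 gene names of the array. They were represented by 12 of its 50599 probes, and every one of these probes was used. GIST-T1 is a human line established from a gastrointestinal stromal tumor (GIST). In both groups, 3000000 cells were electroporated with 100 pmol of RNA, which was either the miR-34a mimic, made to work in place of the mature miRNA, or mirVana Negative Control #1, a mimic with another sequence. Total RNA was taken 48 h later, and 100 ng was labeled with Cy3 for a one-color Agilent array of 60-base probes. There were 2 arrays per group, all from the same cell line, and nothing in the labels says whether the replicates were separate transfections, so that the p-values may cover technical spread alone. Untransfected cells were not analysed here.

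Hyaluronan is a long, unsulfated polysaccharide that synthases of the plasma membrane (HAS1, HAS2 and HAS3) extrude into the extracellular space, where it forms the hydrated coat around mesenchymal cells. CD44 is its best-known receptor at the cell surface, links it to the cortical cytoskeleton through ERM proteins, and exists in many splice forms. HMMR (also called RHAMM) binds hyaluronan at the cell surface but acts inside dividing cells as a spindle protein. Versican, the product of VCAN, is a large matrix proteoglycan that binds hyaluronan through its amino-terminal domain. HYAL2 and HYAL1 cut hyaluronan at the cell surface and in lysosomes. CD44 is a well-known target of miR-34a in carcinoma cells, which is why its transcripts were of interest here.

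Below is the RefSeq sequence of mature miR-34a-5p. With it are other mature miRNAs found in the RefSeq table (GRCh38.p14) with the same bases 2 to 8, a list that may be incomplete. These bases, the seed that pairs first with a target, are in capitals. The labels give neither the arm nor the sequence of the mimic, and the 5p arm, usually meant by miR-34a, is shown. It lies on chromosome 1 at 9151735 to 9151756, minus strand.
hsa-miR-34a-5p: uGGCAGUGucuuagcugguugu
hsa-miR-449a: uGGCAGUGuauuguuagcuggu
hsa-miR-449b-5p: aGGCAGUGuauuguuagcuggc

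The site that pairs with this seed reads CACTGCC in an mRNA, and the shorter match followed by an A reads ACTGCCA. Neither 7-mer occurred in any of the 12 probes, on either strand. Of all probes on the array, 0.435% held CACTGCC and 0.393% held ACTGCCA in the sense of the mRNA (0.48% and 0.488% on the other strand). The probes cover 60 bases of each transcript, and the remainder of the transcripts was not searched.

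Signals are given as the log2 of the processed intensity minus the log2 75th percentile of the same array (scaled log2 signal), so that 0 corresponds to an intensity of 142 to 147. A probe is called detected where the scanner software marked it as well above background, and this held for 41.8% to 45.2% of the probes of an array. The lowest detected signal was at an intensity of 14.7 to 15.7. Differences are the mimic mean minus the control mean. They were tested by limma over the 21474 probes detected on both arrays of at least 1 group, with Benjamini-Hochberg adjustment over all of them. No adjusted p fell below 0.0948, so that 0 probes were called at 0.05 (5222 had an unadjusted p under 0.05). Exact permutation of 2 and 2 arrays allows no two-sided p below 0.33. The GIST markers KIT, ANO1, ETV1, PRKCQ and CD34 each had a probe detected on all 4 arrays, as had DES, a muscle gene that most GISTs lack. The same held for 0 of 5 endothelial, 3 of 5 epithelial and 2 of 4 leukocyte genes.

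Of the 8 genes, 5 were measured above background: CD44 by 2 probes, and HMMR, HAS3, HYAL2 and VCAN by 1 probe each. These 6 probes were detected on all 4 arrays, and the other 6 probes (3 for HAS1 and 1 each for HAS2, HAS3 and HYAL1) on 1 array at most. With the mimic, the mean signal of CD44 was higher by 0.21 on both of its probes, and that of HMMR, VCAN, HYAL2 and HAS3 was lower, by 0.18 to 1.14, and by limma 0 of the 6 probes passed the test.

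**Figure D1:**
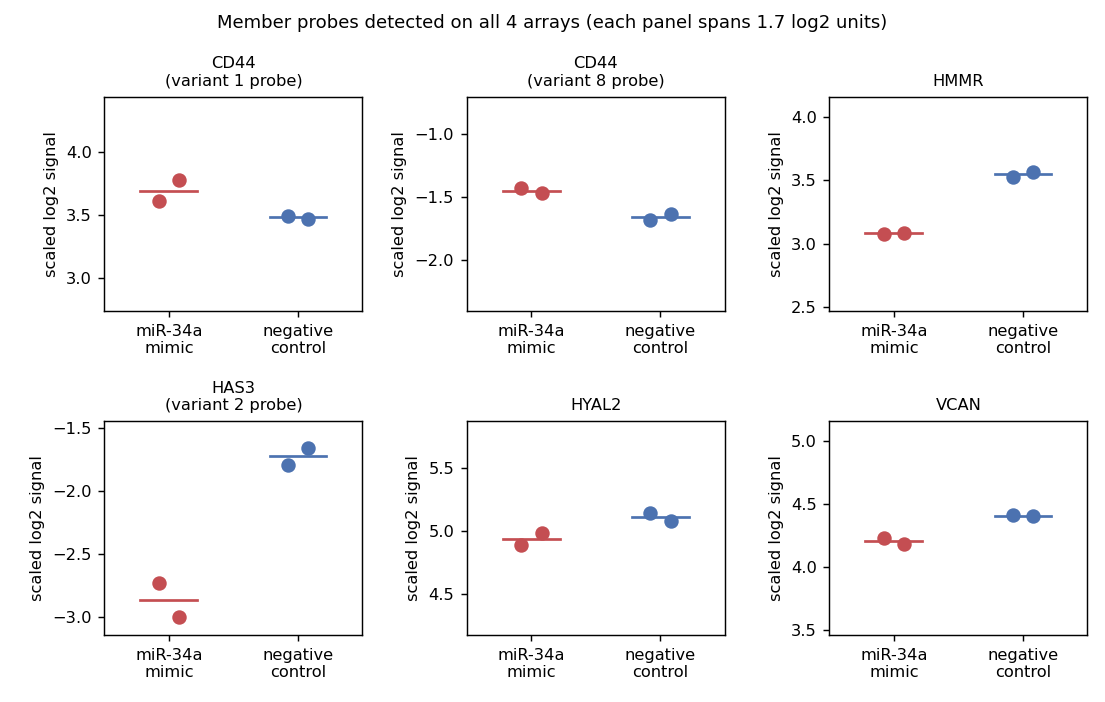
Scaled log2 signal of the 6 probes detected on all arrays, with 1 point per array (red, miR-34a mimic; blue, negative control) and a bar at the mean of each group of 2. Each panel spans the same range of log2 units, and the groups are farthest apart for the HAS3 probe, with means of -2.86 and -1.72.

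CD44 was measured first by a probe annotated to transcript NM_000610 (variant 1) and 3 further RefSeq transcripts, at hg19 chromosome 11 from 35253812 to 35253871, plus strand. Its scaled log2 signal reached 3.62 and 3.78 with the mimic, against 3.49 and 3.47 with the control (intensities of 1778, 1997, 1658 and 1581). Both mimic arrays thus lay above both control arrays, and the mimic replicates differed from each other by 0.16. The difference was 0.21 (standard error 0.080, adjusted p = 0.227 by limma), 1.16-fold higher. Its 95% interval ran from -0.02 to 0.44, which is from 1.01-fold lower to 1.36-fold higher. The difference was 0.29 without miR-34a mimic replicate 1 and 0.13 without replicate 2.

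The second CD44 probe is annotated to NM_001202557 (variant 8) alone and lies on the same strand from 35244791 to 35244850, 8961 bases before the first. It gave -1.43 and -1.47 on the mimic arrays and -1.69 and -1.63 on the control arrays, at intensities of 45.7 to 53.8. Again the groups did not overlap and the mimic arrays were higher. The difference was 0.21 (standard error 0.057, 95% interval 0.04 to 0.38, adjusted p = 0.16 by limma). Where limma let the spread depend on the signal (variance trend), the interval was -0.15 to 0.57 (adjusted p = 0.377 by limma). For the first probe it was then 0.05 to 0.37 (adjusted p = 0.107 by limma). With normexp background correction the difference of the second probe was 0.07. On neither probe was CD44 lower under any setting tried, and the differences ranged from 0.13 to 0.29 on the first and from 0.07 to 0.27 on the second.

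For comparison on the same arrays, PDGFRA, the receptor gene that the study followed as a miR-34a target, gave 4.48 and 4.35 with the mimic and 5.98 and 5.92 with the control. It was 2.9-fold lower (log2 difference -1.53, standard error 0.075, adjusted p = 0.0948 by limma).

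HMMR was measured by a probe on chromosome 5 (hg19, 162918837 to 162918896, plus strand) annotated to 4 RefSeq transcripts, among them NM_012484. The scaled log2 signal was 3.08 and 3.09 on the mimic arrays and 3.53 and 3.57 on the control arrays. The replicates of a group lay within 0.04 of each other, and the groups were well apart. The difference was -0.47 (standard error 0.053, 95% interval -0.62 to -0.31), which is 1.38-fold lower. The adjusted p was 0.0948 by limma, 0.0111 with a variance trend, in which limma lets the spread depend on the signal, and 0.0322 with normexp background correction.

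Because HMMR is a mitotic gene, its value is given beside 12 spindle and proliferation genes that were all tested, each by its brightest probe. Of these, 10 (83.3%) were below 0 and 2 above, with a median log2 difference of -0.17 and a range from -0.50 to 0.08. Over all gene names tested, 51.3% were below 0, with a median of -0.0067. MKI67, the gene of the proliferation marker Ki-67, was further from 0 than HMMR on its brightest probe. The means were 1.01 on the mimic arrays and 1.51 on the control arrays (log2 difference -0.50, adjusted p = 0.0948 by limma and 0.0172 with the variance trend). Its dimmer probes differed by -0.27 and -0.49 (adjusted p = 0.151 and 0.158 by limma). TPX2 and AURKA, which act with HMMR at the spindle, differed by -0.16 and -0.18, and BRCA1 and its partner BARD1 by -0.18 and 0.08. CCNB1 and CDK1, the cyclin and kinase that drive entry into mitosis, differed by -0.17 and -0.16. A dimmer probe of PLK1, a mitotic kinase, differed by -0.70 (adjusted p = 0.266 by limma), against -0.25 on its brightest. The part of cell division in the HMMR value was not tested.

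VCAN was measured by a probe on chromosome 5 (hg19, 82876302 to 82876361, plus strand) annotated to 4 RefSeq transcripts, among them NM_004385. It gave 4.23 and 4.19 on the mimic arrays and 4.41 on each of the control arrays. The mimic arrays were both lower, by more than the replicates differed. The difference of -0.20 (standard error 0.054, 95% interval -0.36 to -0.04) is 1.15-fold lower, with an adjusted p of 0.16 by limma and 0.0489 with the variance trend.

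**Figure D2:**
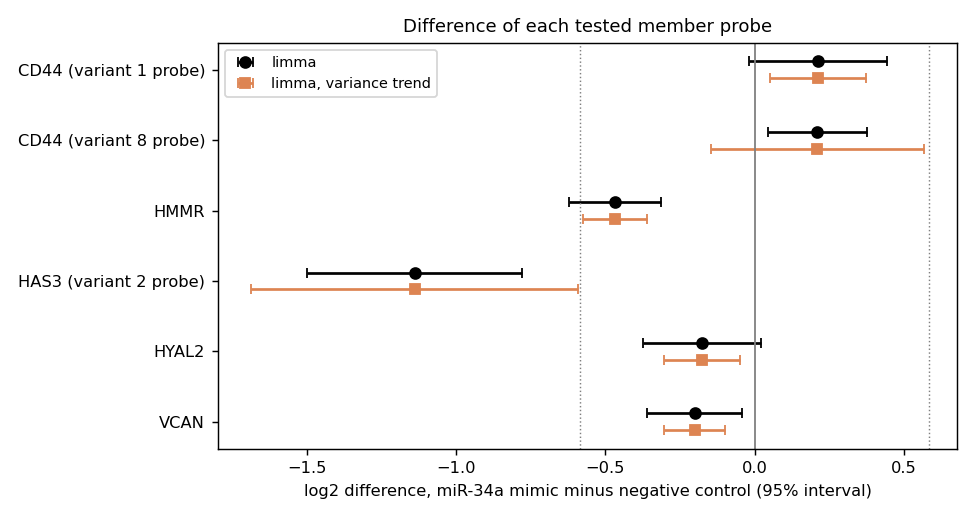
Log2 difference (miR-34a mimic minus negative control) of the 6 tested probes, with 95% intervals by limma (black) and by limma with a variance trend (orange). Dotted lines mark a 1.5-fold difference. The CD44 probes lie at 0.21, to the right of 0, and the other 4 probes to its left, with the HAS3 probe at -1.14 beyond the dotted line.

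Among the synthases, HAS3 was the only gene detected on all arrays, and on 1 of its 2 probes. This probe is annotated to NM_138612 (variant 2) alone and lies on chromosome 16 (hg19, 69152306 to 69152365, plus strand). Its scaled log2 signal was -2.73 and -3.00 on the mimic arrays and -1.79 and -1.66 on the control arrays, at intensities of 21.9, 18.2, 42.6 and 45.1. Both control arrays were clearly above both mimic arrays, and all 4 values were low. They were 1.49 and 1.16 times the lowest detected signal of the array with the mimic, and 2.71 and 2.92 times with the control. The difference was -1.14 (standard error 0.12), 2.2-fold lower (95% interval 1.71 to 2.83), with an adjusted p of 0.0948 by limma and 0.0443 with the variance trend. With normexp background correction, which compresses signals near the background, it was -0.44 (adjusted p = 0.0342 by limma).

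The other HAS3 probe, annotated to NM_005329 (variant 1) and 1 further transcript, lies 877 bases before it, from 69151369 to 69151428. It was detected on no array, with intensities of 3.20 and 3.34 with the mimic and 3.37 and 9.97 with the control. HAS3 was therefore seen through its variant 2 probe alone, and the probes cannot be compared.

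HAS1 was covered by 3 probes on chromosome 19 (hg19, 52216393 to 52220281, minus strand), all annotated to NM_001523. On negative control 2 the probe from 52220222 to 52220281 was detected, at an intensity of 20.1, against 3.64 on negative control 1 and 3.50 and 3.72 on the mimic arrays. The remaining HAS1 probes were detected on no array, with intensities of 3.06 to 4.72. Negative control 2 was also the array with the most detected probes overall (45.2%). No fold is given for HAS1, since only 1 array measured it.

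HAS2, the main synthase of many mesenchymal cells, was spotted 10 times per array by a probe on chromosome 8 (hg19, 122626087 to 122626146, minus strand). None of the 40 spots was well above background. The scanner software had replaced 38 of them by a surrogate value, its stand-in for a signal that is not significant, and intensities ran from 3.06 to 5.26. HAS2 transcripts were thus not detectable on these arrays in either group, and a difference between the groups could not be measured.

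**Figure D3:**
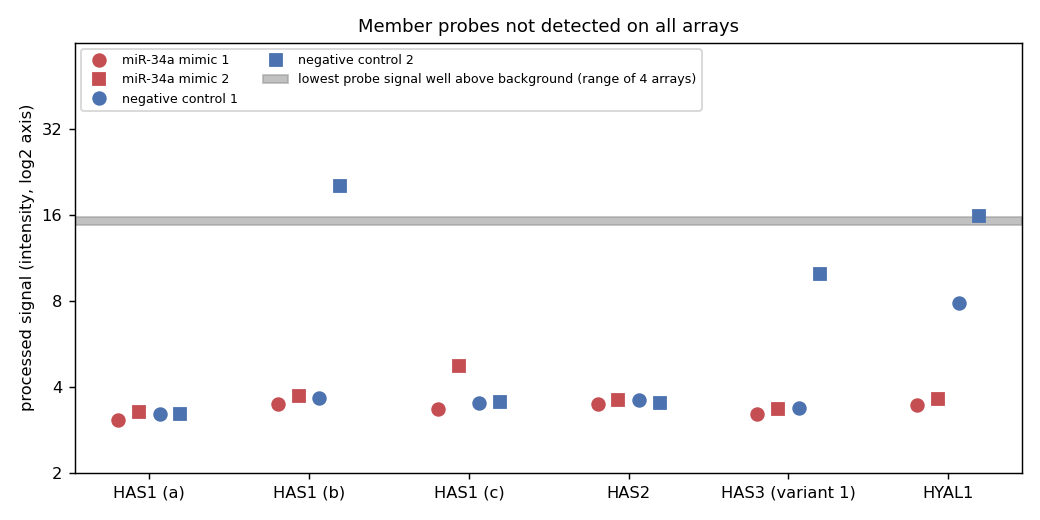
Processed intensity (log2 axis) of the 6 probes that were not detected on all arrays, with 1 point per array (red, miR-34a mimic; blue, negative control; circles, replicate 1; squares, replicate 2). HAS1 (a), (b) and (c) are its probes at 52219584, 52220222 and 52216393, and the gray band marks the lowest detected signals, from 14.7 to 15.7. Nearly all points lie below the band, and those at or above it belong to negative control 2.

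Of the hydrolases, HYAL2 was detected on all arrays. Its probe lies on chromosome 3 (hg19, 50355266 to 50355325, minus strand) and is annotated to NM_033158 and NM_003773. It gave 4.89 and 4.98 on the mimic arrays and 5.14 and 5.08 on the control arrays. The mimic arrays were lower, but by little more than the replicates differed among themselves (0.09 and 0.07). The difference was -0.18 (standard error 0.067, 95% interval -0.37 to 0.02, adjusted p = 0.232 by limma), 1.13-fold lower.

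HYAL1, its neighbor on chromosome 3 (hg19, 50337673 to 50337732, minus strand, NM_007312), was marked well above background on no array. Its intensities were 3.46 and 3.63 with the mimic, both of them surrogate values, and 7.88 and 15.9 with the control. The control replicates differed from each other by 1.06 on the log2 scale, and no fold is given.

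By more than 1.5-fold, the threshold used in the study, 1 of the 6 tested probes was lower (HAS3 variant 2) and 0 were higher, where 4.8% and 2.11% of all tested probes were. Both mimic arrays lay below both control arrays on 4 of the 6 and above them on 2 of the 6, which 30.1% and 30.4% of all tested probes did. By limma 0 of the 6 were called at an adjusted p under 0.05, while 4 had an unadjusted p under 0.05, as did 24.3% of all tested probes. With the variance trend, 3 of the 6 were called lower (HMMR, VCAN and HAS3) and 0 higher, against 3.6% and 3.81% of all tested probes, and the methods' t-test called 4 of the 6 at p under 0.05 (19.6% of all probes with such a test) and 0 after Benjamini-Hochberg adjustment. The median difference of the 6 probes was -0.19, against -0.01 over all tested probes.

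The genes around these members were examined with 9 lists of 73 genes. They were listed for hyaluronan precursors, binding or degradation, for anchoring, cleaving or splicing CD44, or for degrading versican. The lists also included spindle partners of HMMR together with general proliferation genes such as MKI67. For 46 of the 73 genes a probe was tested, and the brightest was used. Of the 46, 2 (4.35%) were lower and 0 higher by more than 1.5-fold, against 4.83% and 1.95% of all 16192 gene names tested. The median log2 difference was -0.10, against -0.01 over all gene names, and 32 of the 46 (69.6%) were below 0, against 51.3%. Of those below 0, 10 came from the 12 spindle and proliferation genes. MMP9, ADAMTS4 and HAPLN3 were also below 0, and they entered the test only through the control arrays, where they were higher. By limma 0 of the 46 were called at an adjusted p under 0.05, and 13 (28.3%) had an unadjusted p under 0.05, against 24.9% of all gene names. With the variance trend 3 (6.52%) were called, against 8.24% of all gene names. MKI67 and CEMIP2 were lower and PGM1 was higher.

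**Figure D4:**
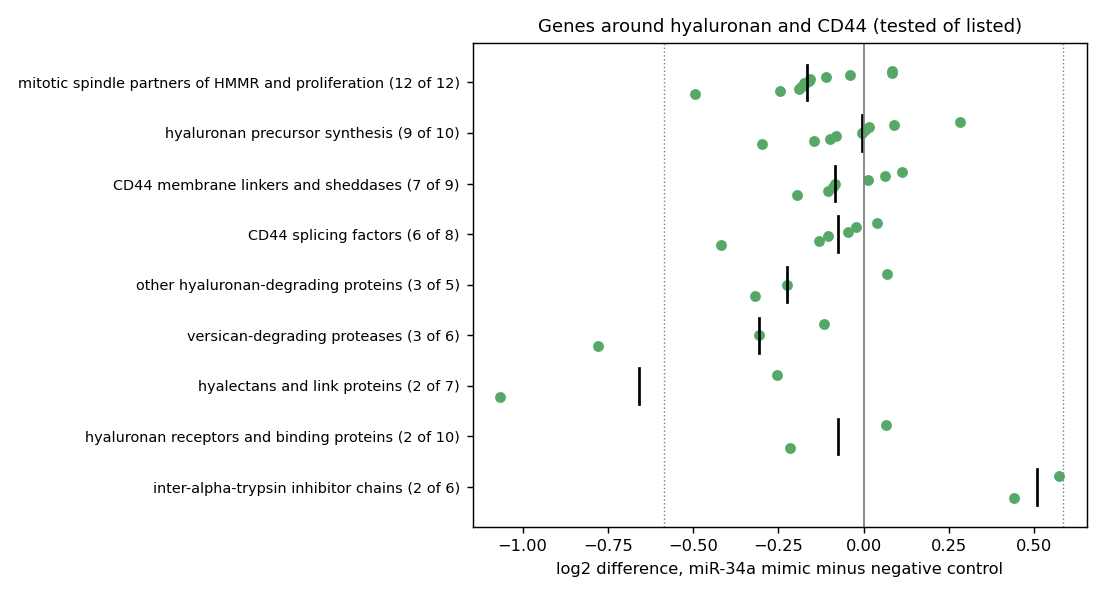
Log2 difference (miR-34a mimic minus negative control) of the tested genes of each list, with 1 point per gene (its brightest probe) and a black bar at the median of the list. Dotted lines mark a 1.5-fold difference, beyond which lie HAPLN2 and ADAMTS4, and the count behind each name is of tested among listed genes.

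Both genes beyond 1.5-fold on their brightest probe rested on few arrays. Dimmer probes of CEMIP2, PLK1 and HNRNPA1 were also lower by more than 1.5-fold. A dimmer probe of HYAL3 was higher, but it was detected on the mimic arrays alone and entered the test only through them. HAPLN2, a link protein that fastens proteoglycans to hyaluronan, gave 1.45 and 3.05 on the mimic arrays and 3.34 and 3.29 on the control arrays (log2 difference -1.06, adjusted p = 0.35 by limma). Mimic replicate 1 alone was low. Without it the difference was -0.26, and without mimic replicate 2 it was -1.86. ADAMTS4, a protease that cuts versican and aggrecan, gave -2.80 and -3.02 with the mimic, where only 1 array detected it, and -2.38 and -1.88 with the control. The ADAMTS4 probe entered the test only through the control arrays, where it was higher, so no p is given. Its log2 difference of -0.78 was -0.53 without negative control replicate 2. ADAMTS1, a related protease, differed by -0.31 (adjusted p = 0.13 by limma).

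Besides the HYAL members, the genes listed as degrading hyaluronan included CEMIP2 (named TMEM2 on the array), a hyaluronidase of the cell surface measured by 3 probes. The brightest gave 4.46 and 4.54 on the mimic arrays and 4.84 and 4.79 on the control arrays. Its difference was -0.32 (adjusted p = 0.12 by limma and 0.0264 with the variance trend). The other probes differed by -0.61 each (adjusted p = 0.0948 and 0.148 by limma), so that the probes had the same sign and unequal sizes. CEMIP2 was singled out after its values were seen. HYAL3 differed by -0.23 on its brightest probe (adjusted p = 0.215 by limma). On another it was higher with the mimic, with means of -2.34 on the mimic arrays and -3.27 on the control arrays. That probe was detected on the mimic arrays alone and entered the test only through them, so no p or fold is given. HYAL4, whose activity on hyaluronan was not examined here, differed by 0.07, whereas CEMIP and SPAM1 had no tested probe.

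Enzymes that supply the UDP-sugars for hyaluronan showed no common direction, with 5 of 9 below 0 and a median of -0.0049. UGDH, which makes UDP-glucuronic acid, differed by -0.15, and GFPT1, the entry enzyme of the hexosamine pathway, by -0.10. PGM1, a phosphoglucomutase, gave 2.61 and 2.60 on the mimic arrays and 2.37 and 2.28 on the control arrays, 0.28 higher (adjusted p = 0.131 by limma and 0.0437 with the variance trend). GNPNAT1, an acetyltransferase of the same pathway, differed by -0.30 (adjusted p = 0.143 by limma).

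The ERM proteins that tie CD44 to actin were detected with small differences, namely 0.01 for EZR, 0.06 for MSN and -0.20 for RDX. Its sheddases ADAM10 and ADAM17 differed by -0.10 and 0.11 (a dimmer ADAM10 probe by 0.25), and MMP14 had no tested probe. MMP9 was detected on the control arrays alone, with means of -3.17 on the mimic arrays and -3.08 on the control arrays. Its probe entered the test only through the control arrays, so no p or fold is given. Of the splicing factors, ESRP1 and ESRP2, which promote epithelial splice forms of CD44, had no tested probe. By brightest probes, the farthest from 0 of the 6 tested was SRSF1, with -1.33 and -1.13 on the mimic arrays and -0.85 and -0.77 on the control arrays (log2 difference -0.42, adjusted p = 0.134 by limma). The probes of HNRNPA1 differed by -0.05, -0.68 and 0.07 from the brightest to the dimmest.

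Most other hyaluronan receptors and binding proteins were not tested, among them LYVE1, STAB1, STAB2, LAYN, TLR2, TLR4 and TNFAIP6. The exceptions, C1QBP and HABP4, differed by -0.22 and 0.07. Of the hyalectans and link proteins other than versican, HAPLN2 and HAPLN3 were tested, and of the inter-alpha-trypsin inhibitor chains, which are transferred onto hyaluronan, ITIH3 and ITIH4. ITIH3 was higher by 0.57 with all arrays but differed by -0.37 without negative control replicate 1 and by 1.52 without replicate 2. ITIH4 differed by 0.44 (adjusted p = 0.317 by limma).

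The genes whose values over the 4 arrays were closest to those of CD44, by the root mean square difference after centering each probe on its own mean, were FAM173A (0.0054), DNTTIP1 (0.0070) and HIC2 (0.0072), out of 15235 genes detected on all arrays. Those closest to HMMR were PRR11 (0.0066), BTG2 (0.0084) and HIST1H2BN (0.013). With 4 arrays in 2 groups, such closeness describes a similar difference and similar replicates and no more.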

How the data were processed

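Gene expression was measured on one-color Agilent arrays in GIST-T1 cells, with 2 arrays for the mimic and 2 for the control, grouped by their labels. The authors deposited the spot intensity of each array as extracted with Agilent Feature Extraction 10.7.3.1 (processed signal, mean and local background, and flags, among other columns). A further table by the authors holds the processed intensity for the whole series. These intensities were background-subtracted and detrended within an array but not scaled between arrays. The text of the paper names GeneSpring GX, with neither a scaling nor a test for the arrays, and t-tests for continuous variables in general.

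Control spots and outlier spots (293 to 424 per array of 58717) were left out, 0 were saturated, log2 signals of the same probe were averaged (a probe counts as detected if at least as many of its spots are well above background as are not), and the 75th percentile of each array was subtracted. limma 3.58.1 (R 4.3.3) was fitted with lmFit and eBayes over 21474 probes detected on both arrays of a group. Replicates differed with an SD of 0.337 (mimic) and 0.29 (control) on the log2 scale, and having 2 arrays a group limits precision.

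Members and gene lists were chosen with earlier results of these data known. Genes were named by the rule that every member is given with every probe, list genes beyond 1.5-fold, and the 3 genes most like CD44 and HMMR. All other list genes named were chosen after their values were seen. Of the 12 probes, 11 carried an accession found in the RefSeq gene table for GRCh38.p14, and the HYAL1 probe keeps the name in the files. Positions are the hg19 positions of the array's annotation, and exons and untranslated regions were not annotated here. Tried as alternatives were quantile normalization, normexp (offset 50), the 75th percentile over detected probes, no filter or a stricter one on dim probes, the authors' table, a variance trend, the replicate number as a block, the methods' t-test, and leaving out each array.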

Additional observations from a re-analysis of the deposited data

How the results depend on the processing

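The sign of the CD44, HMMR, VCAN and HYAL2 differences was the same under all 13 alternatives, which spanned 0.13 to 0.29, -0.49 to -0.41, -0.22 to -0.18 and -0.22 to -0.13. Leaving out single arrays gave 0.13 to 0.29 for CD44, -0.49 to -0.45 for HMMR, -0.22 to -0.18 for VCAN and -0.22 to -0.13 for HYAL2. Calls gained were HMMR (-0.47), VCAN (-0.20) and the HAS3 variant 2 probe (-1.14) with the variance trend, and HMMR (-0.41) and this HAS3 probe (-0.44) with normexp. With the replicate number as a block, where HMMR was -0.47 (adjusted p = 0.223 by limma), no call changed. The numbers share no batch in the labels, and the deviations of same-numbered arrays correlated at -0.028.

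The count of members lower by more than 1.5-fold (1 of 6) was 0 with normexp and 4 of 12 without a filter on dim probes, where 13.5% of all probes were lower and a HAS3 and the HYAL1 probe, detected on no array, and a HAS1 probe, detected on 1, enter. The list genes lower (2 of 46) were 1 of 46 with normexp, 7 of 73 without a filter and 1 of 43 among probes detected on all arrays. Of all probes, 0.862%, 13.5% and 2.55% were lower in these settings. Those higher (0 of 46) were 1 of 46 after quantile normalization and 3 of 73 without a filter, where 3.27% and 4.09% of all probes were higher. Both counts of list genes, lower and higher, also moved when some single arrays were left out. With an array left out, the log2 difference ran from -1.86 to -0.26 for HAPLN2 and from -1.03 to -0.53 for ADAMTS4. Quantile normalization made 52.5% of all probes beyond 1.5-fold lower, against 69.5%. With an array left out, the lone array is assumed to vary like those of the other group. HAS2 and HYAL1 were well above background on no array and HAS1 on 1 alone, and the HAS3 signal was close to background. This limits what these arrays can show, and the causes of the differences were not tested.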
